A study of Mus musculus with 6 samples.

Results

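The unfolded protein response (UPR) and the integrated stress response were examined through 35 genes in lung endothelial cells (ECs) of mice with breast cancer metastases. The genes were chosen by function, with earlier results of these data known. Each was represented by the brightest probe set, on average over the 6 arrays, among those that carry its symbol alone. All 35 were found among 18194 genes that could be represented in this way. They comprise 11 chaperones and co-chaperones of the endoplasmic reticulum (ER), 4 protein disulfide isomerases, 6 stress sensors and transcription factors, 6 genes of ER-associated degradation, 5 ATF4 and CHOP targets or eIF2 phosphatase subunits, and 3 genes of the translocon and ER calcium. All 35 lay above a background level of 7.48 on the log2 scale, below which 95% of 44 probe sets for olfactory receptors lie.

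The ECs came from female NSG mice, an immunodeficient strain without mature lymphocytes, which were 6 to 8 weeks of age. Both groups bore metastases in the lung from MDA231-LM2, a subline of the human line MDA-MB-231 with a high capacity to colonise lungs. The cancer cells were injected intravenously, and lungs were harvested on day 20. In the shControl group (n = 3) the cancer cells expressed a control short hairpin RNA, and in the shTNC group (n = 3) a hairpin against TNC, the gene of the matrix glycoprotein tenascin C. Cells positive for CD31 and negative for CD45, CD11b, EpCAM, CD140a, CD140b and the GFP of the cancer cells were sorted. Total RNA, at a low input of 2 ng for each sample, was measured on Affymetrix arrays as log2 levels, with 1 array for each sample. The groups therefore share the strain, the host, the cancer cell line and the sort, and no lung without metastases is part of the comparison. The paper reports that loss of TNC lowered colonization of the lung by these cells. The metastatic load of the lungs used here was not analysed, and its part cannot be told apart from that of tenascin C. The sort takes ECs of the whole lung, near metastases or not. The hairpin is directed at the human gene of cells that the sort removes, so the mouse Tnc probe set, with a difference of -0.17 ± 0.16 (SE), does not check the knockdown.

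When unfolded proteins build up in the ER, the chaperone BiP (Hspa5) is drawn away from 3 membrane sensors, IRE1 (Ern1), PERK (Eif2ak3) and ATF6. IRE1 splices the Xbp1 transcript, ATF6 is cut to release a transcription factor, and PERK phosphorylates eIF2, which lowers general protein synthesis and favours translation of ATF4. XBP1 and ATF6 then raise chaperones, disulfide isomerases and degradation genes, whereas ATF4 raises CHOP (Ddit3) and amino acid synthesis genes, and GADD34 (Ppp1r15a) reverses the phosphorylation of eIF2. ECs secrete large amounts of matrix and clotting proteins through the ER. The arrays measure transcript levels, so splicing of Xbp1, cleavage of ATF6 and phosphorylation of eIF2 are not among the measurements.

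Several of these genes share short promoter elements that ATF6, XBP1 and ATF4 bind. To show which members carry them, windows from 250 bases before to 50 bases after each gene's start were taken from RefSeq (GRCm38.p6) and were found for 29 of the 35 members. Hyou1, Manf, Atf6, Derl1, Ppp1r15b and Sec61a1 had no window. Both strands were searched for 4 strings. The ER stress element was taken as CCAAT, any 9 bases and CCACG, and it stood in the windows of 8 members and in 0.119% of all 32851 windows. Element II was taken as ATTGG, any 1 base and CCACG, and it stood in 2 members and 0.0365% of windows. The UPR element, TGACGTG, stood in 1 member and 2.01% of windows, and the CEBP-ATF response element, TGATGNAA, in 4 members and 3.97% of windows. The ER stress element and element II share the string CCACG, but the elements found in a member did not overlap each other.

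The promoter of Hspa5 is shown in full because it holds both the UPR element and the ER stress element, at -157 to -151 and -65 to -47 from the start, which are the stretches in capitals. The sequence is the + strand of chr2:34771840-34772089.
Hspa5: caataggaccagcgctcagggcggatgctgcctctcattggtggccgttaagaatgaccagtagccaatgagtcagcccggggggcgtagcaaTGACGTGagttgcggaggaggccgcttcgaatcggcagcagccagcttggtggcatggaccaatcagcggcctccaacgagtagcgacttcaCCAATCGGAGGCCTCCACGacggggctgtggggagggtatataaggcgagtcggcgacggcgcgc

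The other 7 members with an ER stress element are shown with 15 bases on each side, on the strand of the gene, so that their elements can be set beside that of Hspa5. Capitals mark the element, which runs on the opposite strand in Calr, in Creld2 and at the second Hsp90b1 position. The stretches lie at chr8:84847060-84847108 (Calr, - strand), chr11:50325785-50325833 (Canx, - strand), chr15:88819505-88819553 (Creld2, + strand), chr14:118937812-118937860 (Dnajc3, + strand), chr10:86705623-86705671 and chr10:86705518-86705566 (Hsp90b1, - strand), chr12:17266476-17266524 (Pdia6, + strand) and chr19:6046517-6046565 (Syvn1, + strand).
Calr: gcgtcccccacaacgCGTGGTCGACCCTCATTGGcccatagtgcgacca
Canx: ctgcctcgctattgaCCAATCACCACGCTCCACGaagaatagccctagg
Creld2: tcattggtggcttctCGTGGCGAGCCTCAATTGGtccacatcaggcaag
Dnajc3: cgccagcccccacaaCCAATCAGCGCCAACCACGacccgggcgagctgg
Hsp90b1, distal: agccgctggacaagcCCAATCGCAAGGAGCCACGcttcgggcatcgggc
Hsp90b1, proximal: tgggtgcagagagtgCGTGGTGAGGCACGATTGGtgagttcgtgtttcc
Pdia6: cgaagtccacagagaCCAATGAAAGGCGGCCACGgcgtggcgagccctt
Syvn1: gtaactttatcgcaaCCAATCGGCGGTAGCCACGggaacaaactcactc

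Herpud1 held element II at -52 to -42 (chr8:94386362-94386402, + strand) and a CEBP-ATF response element further upstream (chr8:94386302-94386339). The ATF4 targets Asns (chr6:7693210-7693247, - strand) and Chac1 (chr2:119351034-119351071, + strand) held the CEBP-ATF response element before their starts. These stretches are shown because they hold element II or the CEBP-ATF response element before the start, and capitals again mark the element. Dnajb11 held element II and Trib3 the CEBP-ATF response element after their starts, which is not printed.
Herpud1, element II: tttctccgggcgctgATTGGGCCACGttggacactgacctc
Herpud1, CEBP-ATF: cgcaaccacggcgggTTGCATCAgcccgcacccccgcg
Asns: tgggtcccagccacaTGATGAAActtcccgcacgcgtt
Chac1: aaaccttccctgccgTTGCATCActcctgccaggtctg

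On their brightest probe sets, transcripts of the UPR and the integrated stress response differed little between ECs of shTNC and shControl metastases. Some further probe sets of the same genes, given below, differed more. The difference, shTNC minus shControl on the log2 scale, lay between -0.28 for Ern1 and 0.23 for Sec61b, with 19 members below 0, 16 above 0 and a median of -0.0046. The 95% intervals of all 35 differences lay between -0.53 and 0.44, so a change of 1 log2 unit in either direction lay outside the interval of every member. In limma none of the 35 passed an adjusted p of 0.05 over all probe sets, where the smallest was 0.345. Of all 18194 genes 0% passed, and the smallest adjusted p of any probe set was 0.126. At an unadjusted p under 0.05, 1 member lay lower in shTNC (Ern1) and 1 higher (Sec61b), beside 7.12% and 4.54% of all genes. Values of the groups did not overlap for 4 members that were lower in shTNC (Ern1, Derl1, Pdia3 and Sec61a1) and for 3 that were higher (Hspa5, Dnajb9 and Sec61b), beside 12.4% and 7.36% of all genes. Thus 2 of 35 at the unadjusted threshold and 7 of 35 without overlap were close to, or below, what all genes showed.

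**Figure D1:**
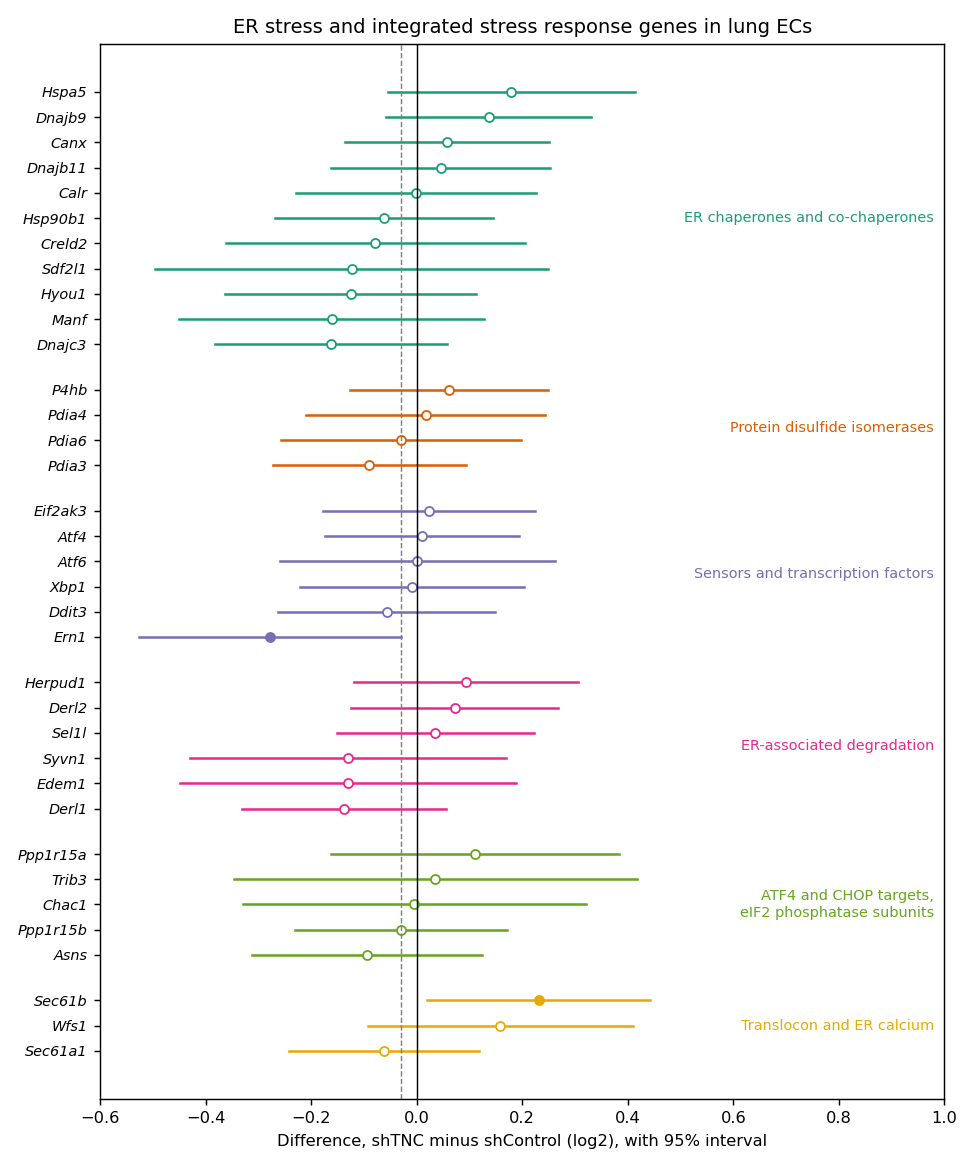
Differences of the 35 members, shTNC minus shControl on the log2 scale, by role, with points for the estimate (filled at an unadjusted p under 0.05) and bars for limma's 95% interval (n = 3 arrays in each group). The dashed line is the median of all genes, -0.030. The points lie between -0.28 (Ern1) and 0.23 (Sec61b), and only the bars of these 2 genes leave out 0.

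The members are bright genes, and bright genes varied less than dim ones. The median size of a member's difference, whatever its sign, was 0.072 log2 units, compared with 0.10 over all genes and 0.081 over the 6797 genes at least as bright as the dimmest member. The median difference of these 6797 genes was -0.011, and that of all genes was -0.030. At an unadjusted p under 0.05 in limma, 285 of the 6797 lay lower in shTNC and 292 higher. Groups did not overlap for 816 lower and 696 higher of them, so the lean of all genes towards lower values was weaker among bright genes. Within a group the members had a median SD of 0.095. The mean level of the 35 members was between 11.99 and 12.06 on the 3 shControl arrays and between 11.95 and 12.05 on the 3 shTNC arrays, so the arrays of the groups overlapped. In sorted bulk ECs, fewer cells that make a transcript and less of it in each cell cannot be told apart.

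On the first principal component over all probe sets, which held 36.6% of the variance, the groups did not overlap. The shControl arrays lay at -11.1, -43.6 and 0.25, and the shTNC arrays at 17.3, 16.1 and 21.1. On this component shControl 2 stood apart from the other arrays. The 15 pan-endothelial markers had a mean level of 13.43 to 13.49 in shControl and 13.44 to 13.46 in shTNC, with differences of -0.028 ± 0.081 (SE) for Pecam1 and -0.043 ± 0.080 for Cdh5. Of the genes of the proteins used to exclude cells, Itgam lay near background, and the differences were 0.32 ± 0.25 for Ptprc, -0.25 ± 0.17 for Itgam, -0.059 ± 0.14 for Epcam, -0.012 ± 0.25 for Pdgfra and -0.0067 ± 0.17 for Pdgfrb. The signal of the Actb probe set at the 3' end over that at the 5' end, a measure of RNA quality, was 0.276 to 0.291 log2 units in shControl and 0.197 to 0.274 in shTNC, so that the groups narrowly missed an overlap. The same measure for Gapdh overlapped, at 0.558 to 0.567 in shControl and 0.499 to 0.581 in shTNC.

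The sensors stand at the head of the response. Ern1, which encodes the sensor IRE1, had the largest difference among the members on its brightest probe set (1437119_at). Its log2 levels were 11.40, 11.12 and 11.08 on the shControl arrays and 10.89, 10.88 and 11.00 on the shTNC arrays. All 3 shTNC values lay below all 3 shControl values, and shControl 1 stood above the other arrays. The difference was -0.28 ± 0.11 (SE, 95% interval -0.53 to -0.030), with an unadjusted p of 0.0324 and an adjusted p of 0.345 in limma. It ranked at place 1527 of 18194 genes by p. Without shControl 1 the difference was -0.18, and the unadjusted p was then 0.104. It was 0.0848 without shTNC 1 and 0.0883 without shTNC 2, at a difference of -0.26 each time.

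The other Ern1 probe sets were divided. The pair above background did not share this difference and gave 0.029 ± 0.10 (1421240_at) and 0.033 ± 0.11 (1438583_at), whereas the pair near background lay the same way at -0.22 ± 0.19 and -0.18 ± 0.14. The mean over all Ern1 probe sets differed by -0.12, with an unadjusted p of 0.173 in limma.

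Eif2ak3, the gene of PERK, had log2 levels of 10.90, 10.78 and 10.89 in shControl and 10.87, 10.96 and 10.80 in shTNC. The values of the groups ran through each other, with a difference of 0.024 ± 0.088 and an adjusted p of 0.934 in limma. Atf6 had levels of 10.47, 10.57 and 10.74 in shControl and of 10.68, 10.42 and 10.68 in shTNC. Both group means were 10.59, and the difference of 0.0014 ± 0.11 had an adjusted p of 0.997 in limma.

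Xbp1, the target of IRE1 splicing, had log2 levels of 13.66, 13.46 and 13.49 in shControl and 13.56, 13.57 and 13.46 in shTNC. The difference was -0.0091 ± 0.092 (95% interval -0.22 to 0.20), with an adjusted p of 0.976 in limma. The level is that of the transcript and does not separate its spliced from its unspliced form. Other Xbp1 probe sets gave -0.18 ± 0.12, 0.0039 ± 0.086 and 0.20 ± 0.089, and the groups did not overlap on the last of them (1420011_s_at).

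Atf4, the central transcription factor of the integrated stress response, had the smallest SE of the 6 sensors and transcription factors on its brightest probe set (1448135_at). Its log2 levels were 12.91, 12.89 and 12.84 in shControl and 12.86, 12.92 and 12.90 in shTNC. The difference was 0.011 ± 0.080 (95% interval -0.17 to 0.19), with an adjusted p of 0.968 in limma. Its other probe sets gave 0.67 ± 0.10 (1438992_x_at, without overlap) and -0.15 ± 0.11 (1439258_at), so the Atf4 probe sets did not share a direction. ATF4 is raised mainly by translation, which a transcript level does not show. Ddit3, the gene of CHOP, had levels of 10.37, 10.43 and 10.32 in shControl and 10.23, 10.30 and 10.41 in shTNC. Its groups overlapped, with a difference of -0.057 ± 0.089 and an adjusted p of 0.822 in limma.

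**Figure D2:**
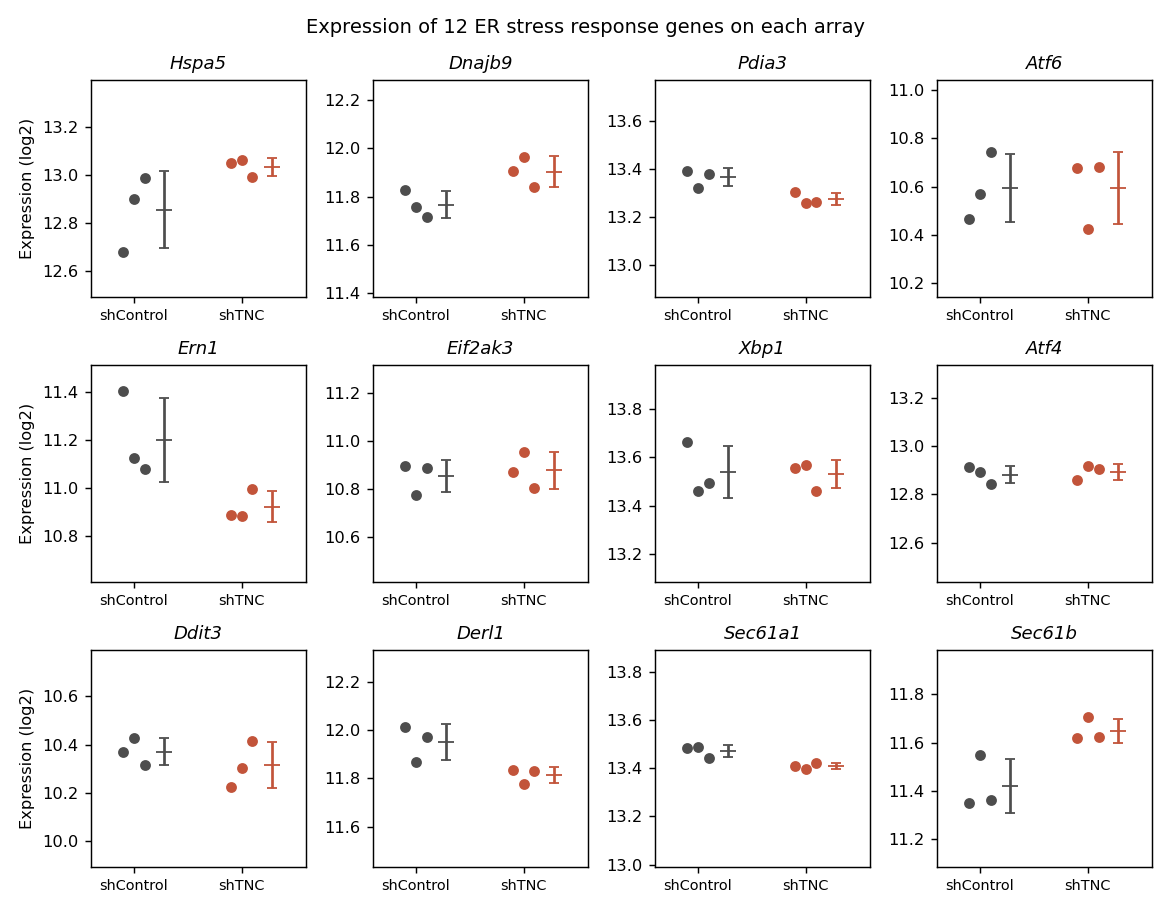
Log2 level on each array (points, 3 shControl and 3 shTNC) with the group mean and SD (bar) for 12 members described in full, on axes of equal span. Ern1 lies lower and Sec61b higher on all 3 shTNC arrays, while Atf6, Xbp1, Atf4, Ddit3 and Eif2ak3 overlap between the groups.

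Among the 11 ER chaperones and co-chaperones, 7 lay below and 4 above 0, with a median difference of -0.062 and no member at an unadjusted p under 0.05. Hspa5, the gene of BiP and the best known marker of the UPR, had log2 levels of 12.68, 12.90 and 12.99 in shControl and 13.05, 13.06 and 12.99 in shTNC. The groups did not overlap, but the highest shControl value (12.989) and the lowest shTNC value (12.992) were nearly equal, and shControl 1 was the lowest of the 6. The difference was 0.18 ± 0.10 (95% interval -0.055 to 0.41), with an adjusted p of 0.491 in limma. Without shControl 1 it was 0.091. Other Hspa5 probe sets gave 0.036 ± 0.093 and -0.029 ± 0.15.

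Dnajb9, a co-chaperone that XBP1 raises and that restrains IRE1, had log2 levels of 11.83, 11.76 and 11.72 in shControl and 11.91, 11.96 and 11.84 in shTNC. All 3 shTNC values lay above all 3 shControl values. The difference was 0.14 ± 0.085 (95% interval -0.058 to 0.33), with an adjusted p of 0.523 in limma. Dnajc3, a co-chaperone known as an inhibitor of PERK, went the other way at -0.16 ± 0.095, with groups that overlapped. Of its other probe sets, 1433887_at gave 0.19 ± 0.098 and 1449373_at gave 0.34 ± 0.14.

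The abundant chaperones of the ER lumen and membrane had smaller differences. Those of Hsp90b1 (the chaperone GRP94), Calr (calreticulin), Canx (calnexin) and Dnajb11 were -0.062 ± 0.090, -0.0016 ± 0.099, 0.057 ± 0.084 and 0.046 ± 0.090, in this order. Hyou1, which encodes a large stress-inducible chaperone, gave -0.13 ± 0.10. Sdf2l1, Manf and Creld2, 3 further stress-induced ER proteins, gave -0.12 ± 0.16, -0.16 ± 0.13 and -0.078 ± 0.12. The groups overlapped for each of these 8 genes.

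Arrays of the same group differed more in some of these chaperones than the groups did. Sdf2l1 had log2 levels of 10.62, 10.12 and 10.36 in shControl and 10.48, 10.26 and 9.99 in shTNC. The shControl arrays spanned 12.17 to 12.48 for Manf and 11.56 to 11.81 for Creld2, and the shTNC arrays 11.98 to 12.33 and 11.44 to 11.83. In the shTNC group Sdf2l1, Manf, Creld2 and Hyou1 were all highest on shTNC 1 and lowest on shTNC 3. The median deviation of the 11 chaperones from each gene's mean over the arrays was 0.10 on shTNC 1 and -0.13 on shTNC 3, and 0.059, -0.073 and 0.018 on shControl 1, 2 and 3. Over all 35 members, shControl 1 held the highest value of the 6 arrays for 12 genes and shTNC 3 for 1 gene, while shTNC 3 and shControl 2 held the lowest value for 9 genes each. Over all genes the highest value lay on shControl 1 for 16.3%, on shControl 2 for 32.7% and on shTNC 3 for 12.4%, and the lowest on shControl 2 for 16.4% and on shTNC 3 for 17.8%.

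**Figure D3:**
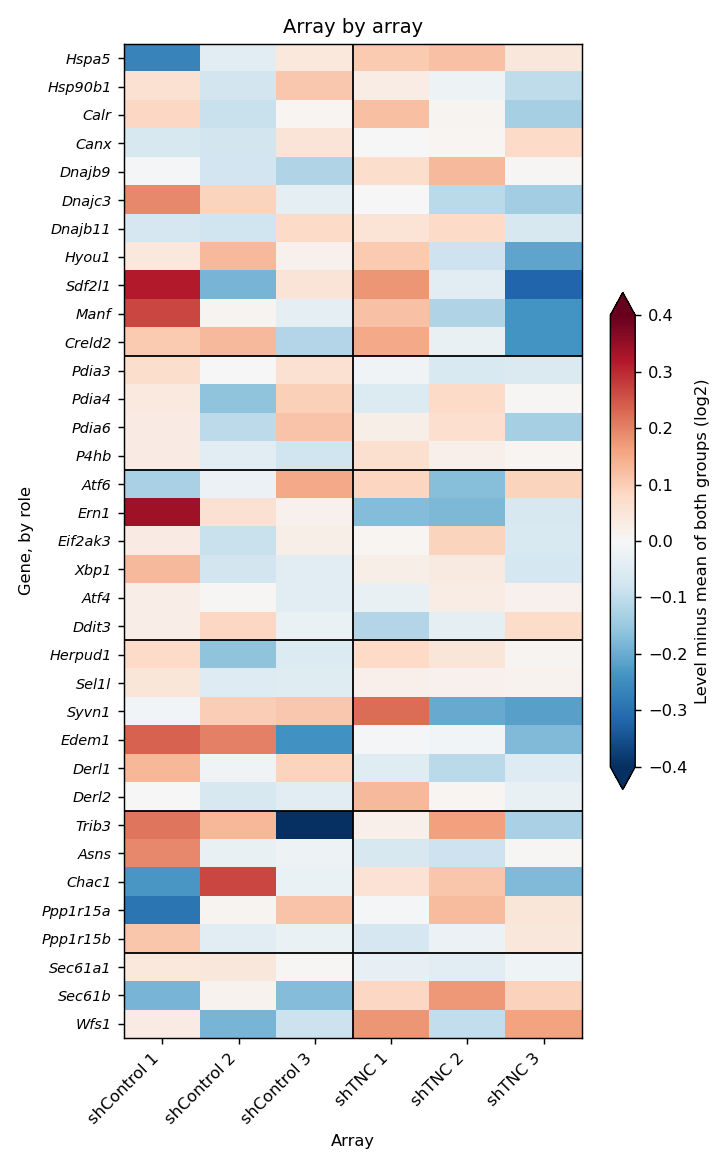
Deviation of each member from its mean over the 6 arrays (log2 units, colour) with genes set out by role from top to bottom and arrays from left to right. The chaperones are mostly above their mean on shTNC 1 (median 0.10) and below it on shTNC 3 (median -0.13), so the split runs within the shTNC group.

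The 4 protein disulfide isomerases, which form and rearrange disulfide bonds in new proteins, had a median difference of -0.0062. Pdia3 had log2 levels of 13.39, 13.32 and 13.38 in shControl and 13.31, 13.26 and 13.26 in shTNC. Its groups did not overlap, at a difference of -0.090 ± 0.080 (95% interval -0.27 to 0.093) and an adjusted p of 0.663 in limma. Pdia4, Pdia6 and P4hb differed by 0.017 ± 0.098, -0.029 ± 0.099 and 0.062 ± 0.082, and their groups overlapped.

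The 6 genes of ER-associated degradation, which draw misfolded proteins out of the ER for the proteasome, were evenly split with 3 below and 3 above 0. Derl1, a channel component, had log2 levels of 12.01, 11.87 and 11.97 in shControl and 11.83, 11.78 and 11.83 in shTNC. All 3 shTNC values were lower, with a difference of -0.14 ± 0.084 (95% interval -0.33 to 0.056) and an adjusted p of 0.518 in limma. Other Derl1 probe sets gave 0.0037 ± 0.084, 0.18 ± 0.084 and -0.072 ± 0.13, so its probe sets did not share a direction. Its relative Derl2 gave 0.072 ± 0.085. The ubiquitin ligase Syvn1 and its partner Sel1l gave -0.13 ± 0.13 and 0.035 ± 0.081. In shTNC, Syvn1 was at 11.00, 10.57 and 10.56, so that shTNC 1 stood above the other arrays, and without that array its difference was -0.27, with an unadjusted p of 0.028 in limma. The other Syvn1 probe set (1428070_at) gave -0.23 ± 0.11, and all its shTNC values lay below its shControl values. Edem1, which marks misfolded glycoproteins, gave -0.13 ± 0.14, and Herpud1, a stress-induced membrane protein of the same machinery, gave 0.093 ± 0.092.

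The 5 ATF4 and CHOP targets or eIF2 phosphatase subunits did not share a direction, with 3 below and 2 above 0. Asns, which makes asparagine, gave -0.094 ± 0.094, and Chac1, which degrades glutathione, gave -0.0046 ± 0.14. Trib3, a pseudokinase that restrains ATF4 and CHOP, gave 0.035 ± 0.17, and leaving out single arrays moved it from -0.16 to 0.15. Its levels were 11.71, 11.63 and 11.10 in shControl and 11.52, 11.66 and 11.37 in shTNC, so arrays within shControl differed far more than the groups did. The regulatory subunits of the eIF2 phosphatase gave 0.11 ± 0.12 for the inducible Ppp1r15a and -0.030 ± 0.087 for the constitutive Ppp1r15b. On its brightest probe set, no gene of this set reached an unadjusted p under 0.05 or had groups that did not overlap. A further Ppp1r15b probe set (1436366_at) gave -0.18 ± 0.097 without overlap.

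Of the translocon and ER calcium genes, Sec61b lay highest in shTNC against shControl of all 35 members. Sec61b encodes the beta subunit of the channel through which new proteins enter the ER. Its log2 levels were 11.35, 11.55 and 11.36 in shControl and 11.62, 11.71 and 11.63 in shTNC. The groups did not overlap, and shControl 2 was the highest of the shControl arrays. The difference was 0.23 ± 0.092 (95% interval 0.020 to 0.44), with an unadjusted p of 0.0355 and an adjusted p of 0.351 in limma. Without shControl 2 the difference was 0.295 (unadjusted p = 0.0112 in limma), and leaving out any of the other 5 arrays gave 0.20 to 0.25 with unadjusted p from 0.0602 to 0.114. A single probe set carries the symbol of Sec61b alone.

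Its partner Sec61a1, the pore-forming subunit, lay the other way. Sec61a1 had levels of 13.48, 13.49 and 13.44 in shControl and 13.41, 13.40 and 13.42 in shTNC, which did not overlap because the spread was small. The difference was -0.061 ± 0.078 (95% interval -0.24 to 0.12), with an adjusted p of 0.774 in limma. Other Sec61a1 probe sets ranged from -0.32 ± 0.12 (1416191_at) to 0.074 ± 0.087 (1434986_a_at). Wfs1, which affects ER calcium, gave 0.16 ± 0.11 with groups that overlapped.

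The promoter elements did not sort the members by direction. Of the 8 members with an ER stress element, 6 lay below and 2 above 0, with a median difference of -0.046 and a range from -0.16 (Dnajc3) to 0.18 (Hspa5). The members with element II differed by 0.046 (Dnajb11) and 0.093 (Herpud1). Of the 4 with a CEBP-ATF response element, 2 lay below and 2 above 0, with a median of 0.015. These matches describe letters in the windows and are not measured binding.

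Further probe sets of the same genes gave a second reading of the members, which the brightest probe set did not use. Of 49 such probe sets, 45 lay above background, in 24 members. In sign, 21 matched the brightest probe set of their gene and 24 opposed it. When a gene was read as the mean of its probe sets, the difference changed sign for Hsp90b1, Calr, Canx, Dnajc3, Pdia3, Atf6, Xbp1 and Sel1l. At an unadjusted p under 0.05, 2 lay lower and 4 higher in shTNC, beside 6.33% and 9.22% of the 11841 further probe sets above background over all genes. None passed an adjusted p of 0.05 in limma.

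Of these 6, the 3 with the smallest p were singled out after their values were seen. For Atf4, probe set 1438992_x_at had log2 levels of 9.74, 10.02 and 9.88 in shControl and 10.43, 10.63 and 10.58 in shTNC. The difference was 0.67 ± 0.10, with an unadjusted p of 0.000181 and an adjusted p of 0.182 in limma, and the groups stood well apart. The suffix _x_at marks probe sets with some probes that are highly similar to other sequences. For Herpud1, 1448185_at had levels of 12.12, 12.02 and 11.92 in shControl and 12.45, 12.45 and 12.36 in shTNC. Its difference of 0.40 ± 0.090 had an adjusted p of 0.215 in limma, beside 0.093 ± 0.092 on the brightest probe set. For Hsp90b1, 1415889_a_at had levels of 12.44, 12.43 and 12.56 in shControl and 12.73, 12.77 and 12.77 in shTNC. Its difference of 0.28 ± 0.083 had an adjusted p of 0.27 in limma, beside -0.062 ± 0.090 on the brightest. All 3 probe sets were higher in shTNC on every array, and for each of these genes the brightest probe set had groups that overlapped. The Actb 3' to 5' signal was lower in shTNC whereas that of Gapdh overlapped, as given above, and the part of RNA quality in these probe sets was not tested.

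The other 3 were 1449373_at of Dnajc3 at 0.34 ± 0.14, 1430983_at of Pdia6 at -0.44 ± 0.19 and 1416191_at of Sec61a1 at -0.32 ± 0.12. Their adjusted p in limma were 0.349, 0.383 and 0.329, and their groups overlapped.

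**Figure D4:**
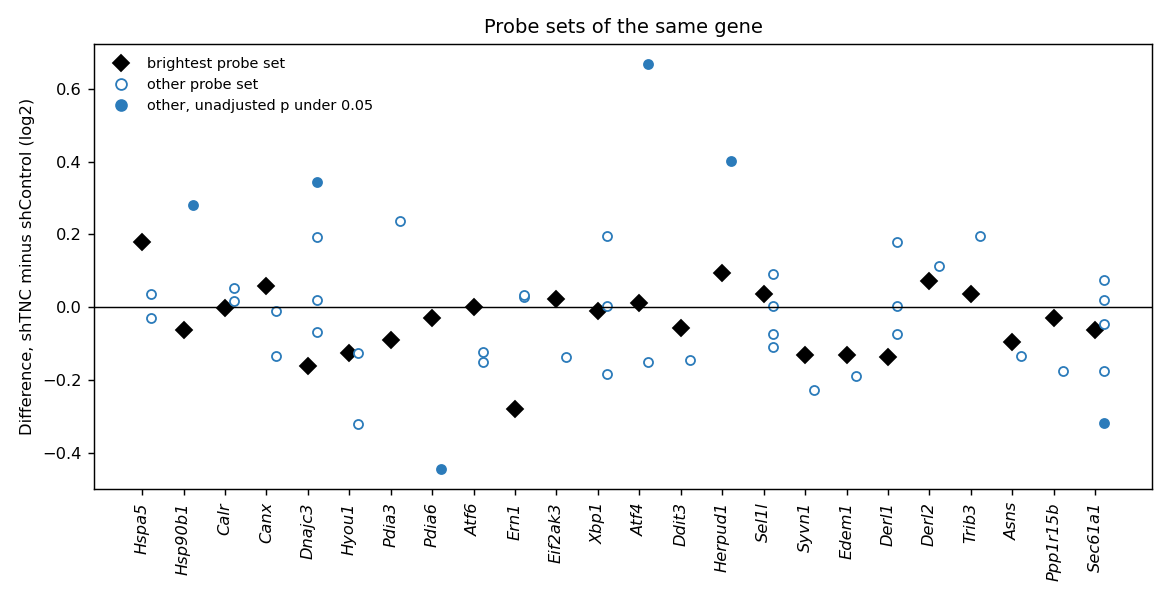
Difference, shTNC minus shControl in log2 units, of the single-symbol probe sets above background, for members that have several, with diamonds for the brightest and circles for the others (filled at an unadjusted p under 0.05). Atf4 spans from -0.15 to 0.67 and Herpud1 from 0.093 to 0.40, so that probe sets of 1 gene differ more than most members do.

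To place the members in the wider pathway, 158 further genes in 7 lists were read in the same way, of which 155 lay above background. None passed an adjusted p of 0.05 in limma. Of the 158, 95 lay below and 63 above 0, with a median difference of -0.028 beside -0.030 over all genes. At an unadjusted p under 0.05, 9 lay lower and none higher, beside 7.12% and 4.54% of all genes. Groups did not overlap for 28 lower and 6 higher genes, beside 12.4% and 7.36%.

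Over the other ATF4 targets and amino acid supply genes, 19 of 30 lay below 0, with a median of -0.086. At an unadjusted p under 0.05 in limma, 5 were lower and none higher, beside 7.12% and 4.54% of all genes. Mthfd2, a mitochondrial enzyme of folate metabolism, had log2 levels of 9.61, 9.40 and 9.27 in shControl and 9.05, 8.92 and 9.08 in shTNC. Its difference was -0.41 ± 0.11, with an adjusted p of 0.249 in limma. Cbs, which makes cystathionine, differed by -0.40 ± 0.11 and the neutral amino acid transporter Slc1a4 by -0.30 ± 0.11, and neither had overlapping groups, but the mean over the Slc1a4 probe sets differed by 0.0028. The other two, named because they complete the count, were Psat1, of serine synthesis, at -0.31 ± 0.13 and Sesn2, a sensor in amino acid signalling, at -0.25 ± 0.10. The mean level of the 30 genes was 9.54 to 9.59 in shControl and 9.47 to 9.49 in shTNC, which did not overlap. Atf4 and Ddit3, and the ATF4 targets Trib3 and Chac1, had overlapping groups on their brightest probe sets, though 1438992_x_at of Atf4 lay higher in shTNC. All 15 cell cycle genes read beside them also lay below 0, with a median of -0.64. At an unadjusted p under 0.05 in limma, 12 of these 15 were lower, beside 7.12% of all genes. Their mean level was 10.60 to 11.08 in shControl and 10.22 to 10.29 in shTNC, and the part of cell division in the values of the ATF4 targets was not tested.

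The 12 cytosolic aminoacyl-tRNA synthetases, which ATF4 also raises, had a median difference of -0.055 and no gene at an unadjusted p under 0.05. Groups did not overlap for 3 lower synthetases and no higher one, beside 12.4% and 7.36% of all genes. The smallest p belonged to Lars (-0.17 ± 0.081), Sars (-0.15 ± 0.083) and Yars (0.12 ± 0.10). The 13 other genes of eIF2, its kinases and eIF2B had a median of 0.014 and no gene without overlap. Those with the smallest p were Impact (0.14 ± 0.10), Nck1 (0.12 ± 0.092) and the kinase Eif2ak1 (-0.087 ± 0.085).

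Of 31 other ER chaperones and foldases, 19 lay below 0, with a median of -0.020. Fkbp14, a prolyl isomerase that acts on collagen, had log2 levels of 12.03, 11.72 and 11.83 in shControl and 11.33, 11.48 and 11.50 in shTNC. Its difference of -0.43 ± 0.11 had an adjusted p of 0.237 in limma, which was the smallest over the 158 genes. Its relative Fkbp11 differed by -0.20 ± 0.093 and Erp29 by 0.19 ± 0.092. Among 21 other genes of ER-associated degradation, 15 lay below 0, with a median of -0.052, and those with the smallest p were Edem2 (-0.22 ± 0.094), Vcp (-0.20 ± 0.10) and Ubxn4 (-0.12 ± 0.083). The mean over the Edem2 probe sets differed by 0.019.

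The 33 other genes of the translocon, signal peptidase, glycosylation and COPII vesicles had a median of -0.035. Groups did not overlap for 8 lower and 1 higher of them, beside 12.4% and 7.36% of all genes. Sec22b, of vesicle traffic between ER and Golgi, differed by -0.21 ± 0.088, Ssr4 by -0.14 ± 0.084 and Sec24d by -0.15 ± 0.093. The 18 stress transducers and cell death genes had a median of 0.0070. Among them Tnfrsf10b, a TRAIL receptor that CHOP raises, had levels of 10.27, 9.88 and 10.40 in shControl and 9.51, 9.83 and 9.82 in shTNC, a difference of -0.46 ± 0.15 with an adjusted p of 0.297 in limma. Atf6b, a relative of Atf6, differed by 0.17 ± 0.081, and Mbtps2, a protease that cuts ATF6, by 0.25 ± 0.12.

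**Figure D5:**
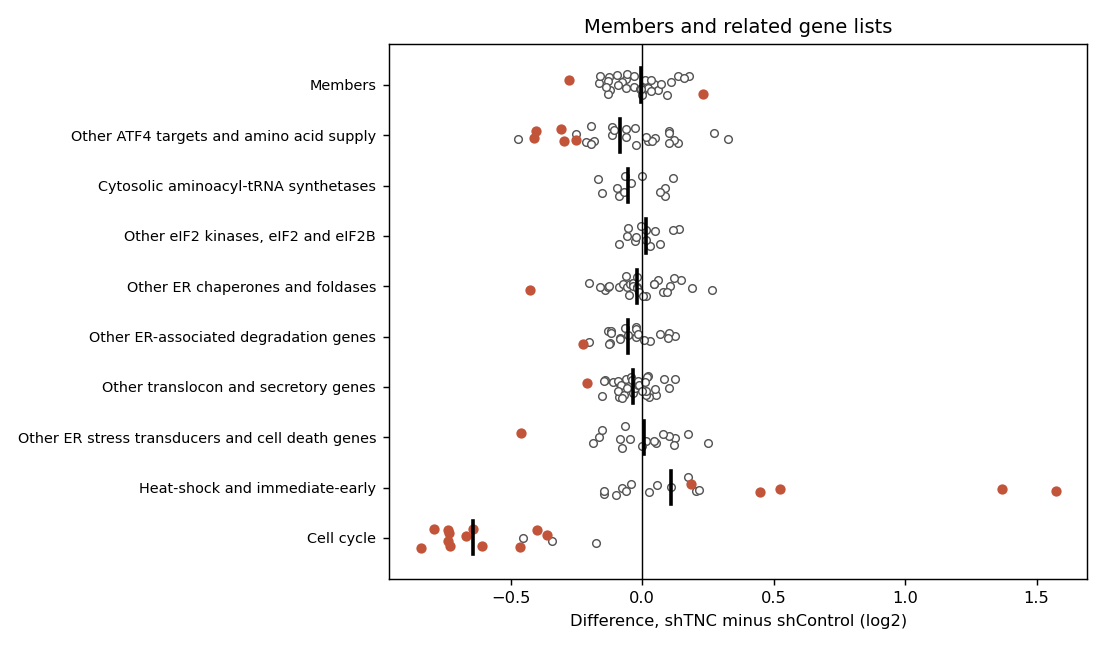
Differences (log2 units, shTNC minus shControl) of the members, the wider pathway lists and the heat-shock and cell cycle lists, with 1 point for each gene, filled at an unadjusted p under 0.05, and a line at each list's median. The members and wider lists centre between -0.086 and 0.014, while the cell cycle list centres at -0.64.

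Stress in the cytosol was read beside that in the ER. Of 17 heat-shock and immediate-early genes, which sorting of cells is known to raise, 11 lay above 0. At an unadjusted p under 0.05 in limma, 5 were higher and none lower, beside 4.54% and 7.12% of all genes. Groups did not overlap for 7 higher genes and 1 lower gene, beside 7.36% and 12.4%. The mean level of the 17 genes was 11.91 to 12.20 in shControl and 12.22 to 12.31 in shTNC, without overlap. The gap was narrow, between 12.198 on shControl 3 and 12.221 on shTNC 1. The inducible Hsp70 genes Hspa1a and Hspa1b differed by 1.57 and 1.37, Junb by 0.52, Ier2 by 0.45 and Fos by 0.18, whereas the heat-shock genes Hspb1, Hsph1, Dnajb1, Hspd1, Hspe1 and Hsp90aa1 lay between -0.15 and -0.041. Of the 11 ER chaperones and co-chaperones among the members, Hspa5 and Dnajb9 lay higher in shTNC without overlap, and the part of sorting in their values was not tested.

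RNA of other cells was read from marker lists. The macrophage list (11 genes, 9 above background) had a mean level of 9.38 to 9.53 in shControl and 9.19 to 9.37 in shTNC, without overlap. At an unadjusted p under 0.05 in limma, 3 genes were lower and none higher, beside 7.12% and 4.54% of all genes. The 3 lower genes were Mrc1 (-0.62 ± 0.14), Cd14 (-0.32 ± 0.096) and Chil3 (-0.69 ± 0.21). Adgre1 and Ccr2 lay near background, while Csf1r, Cd68, Fcgr1, Marco, Mertk and Lyz2 lay above it, with differences between -0.12 and 0.053. The fibroblast list (10 genes) had a level of 9.82 to 10.27 in shControl and 10.17 to 10.62 in shTNC, and the pericyte and smooth muscle list (9 genes) 8.88 to 8.99 and 8.97 to 9.22, each with 2 genes higher at that threshold and none lower. The higher fibroblast genes were Gsn (0.64 ± 0.20) and Mfap4 (0.74 ± 0.32). In the pericyte and smooth muscle list they were Myh11 (0.50 ± 0.096) and Des (0.30 ± 0.12). In each of these lists 4 genes lay below 0. The epithelial list (10 genes) lay at 8.80 to 9.60 and 8.62 to 9.91. The lymphocyte and plasma cell list (9 genes, 2 above background) lay at 7.12 to 7.27 and 7.10 to 7.15. The part of such RNA in the values of the members was not tested.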

How the data were processed

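Total RNA of sorted mouse lung ECs was measured on Affymetrix Mouse Genome arrays in 6 samples that the labels call biological replicates. The deposited values are log2 levels per probe set that the authors normalized between arrays, by RMA in Chipster according to their methods. The sorted values of the arrays differed by at most 0.0700, and the number of arrays limits the precision. Raw array files were not used here. Many low values are tied (5773 to 6883 distinct values an array), which leaves it uncertain whether they are RMA values.

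All 45101 probe sets were fitted with lmFit and eBayes of limma 3.58.1 (R 4.3.3), two-sided and without covariates, with Benjamini-Hochberg adjustment over all of them and a threshold of 0.05. Symbols came from the platform annotation, in which 34958 probe sets carry 1 symbol, 932 several and 9211 none. A gene was represented by its brightest single-symbol probe set. Differences are shTNC minus shControl with limma's standard error (SE), and intervals are at 95%. Lists are described by counts and medians beside those of all genes. Of 303 list entries 291 were matched, and the rest were not analysed here. Every member was accounted for, with members at an unadjusted p under 0.05, those without overlap, Hspa5, Atf4, Xbp1, Ddit3, Atf6, Ern1 and Eif2ak3 in full. From each wider list, up to 3 genes with the smallest p were named, with Psat1 and Sesn2 added after their values were seen. Marker lists were given by mean levels and the sort markers, with further single genes named after their values were seen. The members and lists were chosen with earlier results of these data known.

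The steps were tested on simulated data. Alternatives were the replicate number as a block, quantile normalization, centring on the median, array weights, a robust eBayes step with an intensity trend, removal of probe sets near background, the mean of a gene's probe sets, and leaving out each array in turn. Promoter windows were searched with Python 3.11.15. Protein sequences were not analysed here.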

Additional observations from a re-analysis of the deposited data

How the results depend on the processing

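No member passed an adjusted p of 0.05 in limma in any of 13 alternatives, and the smallest was 0.245. Of the 35 members, 17 kept their direction in all of them, 26 in those with all arrays and 22 when each array was left out. The counts at an unadjusted p under 0.05, 1 lower and 1 higher, became 2 (Ern1 and Dnajc3) and 2 (Sec61b and Hspa5) with an intensity trend and robust eBayes, and 0 and 2 (Herpud1 and Sec61b) with the mean of a gene's probe sets. When each array was left out they ranged from 0 to 2 and from 0 to 1, without any lower member when shControl 1 or shTNC 2 was left out and with a higher one only without shControl 2. The members without overlap ranged from 4 to 8 lower, with 8 without shTNC 1, and from 3 to 7 higher, with 7 without shControl 1 and 5 without shControl 3, since fewer arrays overlap less often by construction. The median difference ranged from -0.033 to 0.021 when each array was left out. It was -0.031 with array weights and 0.0021 with the mean of probe sets.

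With the mean of a gene's probe sets the sign turned for Hsp90b1 (0.11), Calr (0.023), Canx (-0.029), Dnajc3 (0.065), Pdia3 (0.073), Atf6 (-0.090), Xbp1 (0.0021), Sel1l (-0.011), Slc1a4 (0.0028) and Edem2 (0.019), where further probe sets enter by construction, and with array weights for Chac1 (0.061). When each array was left out the sign turned for Calr (-0.062 to 0.064), Sdf2l1 (-0.25 to 0.0045), Creld2 (-0.17 to 0.021), Pdia4 (-0.059 to 0.069), Pdia6 (-0.088 to 0.030), Atf6 (-0.062 to 0.087), Eif2ak3 (-0.016 to 0.060), Xbp1 (-0.049 to 0.053), Atf4 (-0.0094 to 0.028), Trib3 (-0.16 to 0.15), Chac1 (-0.12 to 0.13), Ppp1r15a (-0.0086 to 0.20) and Ppp1r15b (-0.060 to 0.018). Beyond these constructions the cause was not tested.

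The labels number the arrays 1 to 3 in each group. Deviations of same-numbered arrays correlated at -0.085, 0.041 and 0.10, so the numbers were not taken as pairs. With the replicate number as a block Ern1 and Sec61b had unadjusted p of 0.0482 and 0.0455 in limma, the counts stayed at 1 and 1, and no call changed. Signal over background limits none of the members, all of which are bright.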
